A study of Mus musculus with 1152 samples.

Results

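The genes described here are Ttr, Kl, Folr1, Clic6 and Otx2, 5 of the 46517 genes of a read count table of single cells sorted from the adult mouse brain. They are marker genes of the choroid plexus epithelium and were chosen by name, with earlier results of these data known. The wells were selected on the measured levels of the same genes. A choroid plexus well had at least 3 of the 5 genes at 200 CPM (counts per 1000000 reads of the well) or more, and a Ttr-only well had Ttr at 200 CPM or more with the other 4 genes under it. Levels of the members in these wells are therefore a description, and no test was made.

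The choroid plexus is a folded epithelium in the ventricles of the brain that secretes cerebrospinal fluid, with a leaky capillary bed and a stroma beneath it. Its cells make transthyretin (Ttr), a carrier of thyroid hormone and of retinol-binding protein, in very large amounts, and Ttr is among the most abundant mRNAs of the tissue. Klotho (Kl) is a membrane and shed co-receptor for FGF23, the folate receptor Folr1 carries folate across the epithelium, Clic6 belongs to the chloride intracellular channel family, and Otx2 is a homeodomain transcription factor needed to form and keep the tissue.

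RNA was measured with SMART-seq2, in which full-length cDNA of 1 sorted cell per well is amplified, without molecular identifiers. The sorted fluorescent cells came from adult C57BL/6 animals, males and females, of 2 reporter lines. In Pdgfra-H2BGFP mice nuclear green fluorescence follows the Pdgfra gene, and in the line written Tagl-CREERT2;Ai14 a tamoxifen-dependent recombinase turns on a red fluorescent protein. Brain tissue was digested and vascular fragments were captured on anti-CD31 beads before the sort. The labels do not name the choroid plexus as a source, no label ties a well to a line, an animal or a plate, and all wells were handled as 1 sample.

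The table has 1152 wells in 3 sets of 384, named 1025s_182s, 600s_182s and 613s, and each well name ends in a plate position (rows A to P, columns 1 to 24). Of these wells 857 had at least 50000 reads, with 50002 to 1451280 reads and a median of 279874, and 295 had fewer. In the set 1025s_182s 239 wells were kept, in 600s_182s 349 and in 613s 269. Wells were also given a class where at least 3 markers of a cell type reached 200 CPM, "mixed" where this held for several types and "ungated" where it held for none.

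RefSeq promoter windows of build GRCm38.p6 (250 bases before to 50 after a start) were at hand for 2 members, Kl with 1 window and Otx2 with 4. Because the members are high in the same wells, the windows were searched for TAATCC, the site preferred by OTX-type homeodomains, and its reverse complement GGATTA, on both strands with no overlap of the 2 motifs. The 250 bases before the Kl start (chr5:150952357-150952606, plus strand) and before the most upstream start of the 4 Otx2 windows (chr14:48667645-48667894, minus strand) overlap no annotated exon of their gene. This Otx2 stretch lies inside the annotated gene, which starts further upstream. They are shown first, then the 30 bases around the only match (chr14:48665303-48665332, minus strand), with the motif in capitals.
Kl upstream: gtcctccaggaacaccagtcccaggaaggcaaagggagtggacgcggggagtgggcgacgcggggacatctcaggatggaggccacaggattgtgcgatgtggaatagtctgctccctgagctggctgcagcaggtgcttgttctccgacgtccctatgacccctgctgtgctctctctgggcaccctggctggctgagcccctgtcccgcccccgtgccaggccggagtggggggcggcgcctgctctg
Otx2 before the start of this window: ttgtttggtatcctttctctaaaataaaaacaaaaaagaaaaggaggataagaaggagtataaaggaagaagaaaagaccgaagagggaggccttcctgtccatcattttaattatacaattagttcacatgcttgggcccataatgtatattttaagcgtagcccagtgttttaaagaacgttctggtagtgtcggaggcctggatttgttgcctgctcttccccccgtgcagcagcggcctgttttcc
Otx2 match: cgtgtgcccctcGGATTAtctcgttagttt
The match lies in exonic sequence of Otx2, at base 40 of the window of a more internal start. The Kl window and the other 3 Otx2 windows do not hold these letters. Of all 32851 RefSeq windows, 2320 (7.06%) hold them, so a match in 1 of 5 windows is a description of sequence and no sign of binding.

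In the GRCm38 annotation of GENCODE vM21, Kl lies at chr5:150952607-150993817 on the plus strand, Folr1 at chr7:101858331-101870788 on the minus strand, Clic6 at chr16:92485736-92541243 on the plus strand, Otx2 at chr14:48657677-48673819 on the minus strand and Ttr at chr18:20665280-20674321 on the plus strand. All 5 are protein-coding genes.

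Choroid plexus wells were rare and absent from 1 set. There were 16 of 857 kept wells (1.87%, exact Clopper-Pearson 95% interval 1.07 to 3.01). The set 613s held 9 of 269 (3.35%) and 1025s_182s held 7 of 239 (2.93%), while 600s_182s held 0 of 349, a count that allows a share of up to 0.860% by the limit of 3 counts and 1.05% by the exact Clopper-Pearson interval. Intervals and limits on shares of wells cover counting error only, since wells are not replicates. Intervals on reads take each read as a separate count, while PCR copies of 1 molecule count as several reads. They cover neither these copies nor the spread over wells. Of the 16 wells, 9 had all 5 members at 200 CPM or more, 5 had 4 and 2 had 3. Ttr-only wells were more common, 261 of 857 (30.5%, 27.4 to 33.7), with 144 of 269 in 613s (53.5%), 104 of 239 in 1025s_182s (43.5%) and 13 of 349 in 600s_182s (3.72%). A further 5 wells had Ttr and exactly 1 other member at 200 CPM.

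In the 16 choroid plexus wells every member had reads in every well. Ttr ran from 1508 to 10464 CPM with a median of 5833, from 938 to 1994 reads. Folr1 ran from 546 to 3308 CPM (median 1738, 85 to 1230 reads). Kl ran from 188 to 2636 CPM (median 1042, 20 to 1795 reads). Ttr and Folr1 reached 200 CPM in all 16 wells, and the co-receptor Kl missed it in 1. Clic6 ran from 151 to 1163 CPM (median 443, 14 to 836 reads) and missed 200 CPM in 1 well. The transcription factor Otx2 ran from 32.5 to 727 CPM (median 217, 5 to 299 reads) and reached 200 CPM in 9. Per kilobase of exon the order of summed levels was Ttr at 3918 CPM per kb, Folr1 at 679, Clic6 at 130, Kl at 124 and Otx2 at 67.1. Clic6 and Kl changed places against CPM because the Kl exons cover 9328 bases and those of Clic6 3914. Over wells Ttr ran from 1272 to 8823 CPM per kb, Folr1 from 238 to 1440, Clic6 from 38.7 to 297, Kl from 20.2 to 283 and Otx2 from 7.69 to 172. Clic6, Kl and Otx2 overlapped over most of their ranges, so their order does not exceed the spread over wells.

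**Figure D1:**
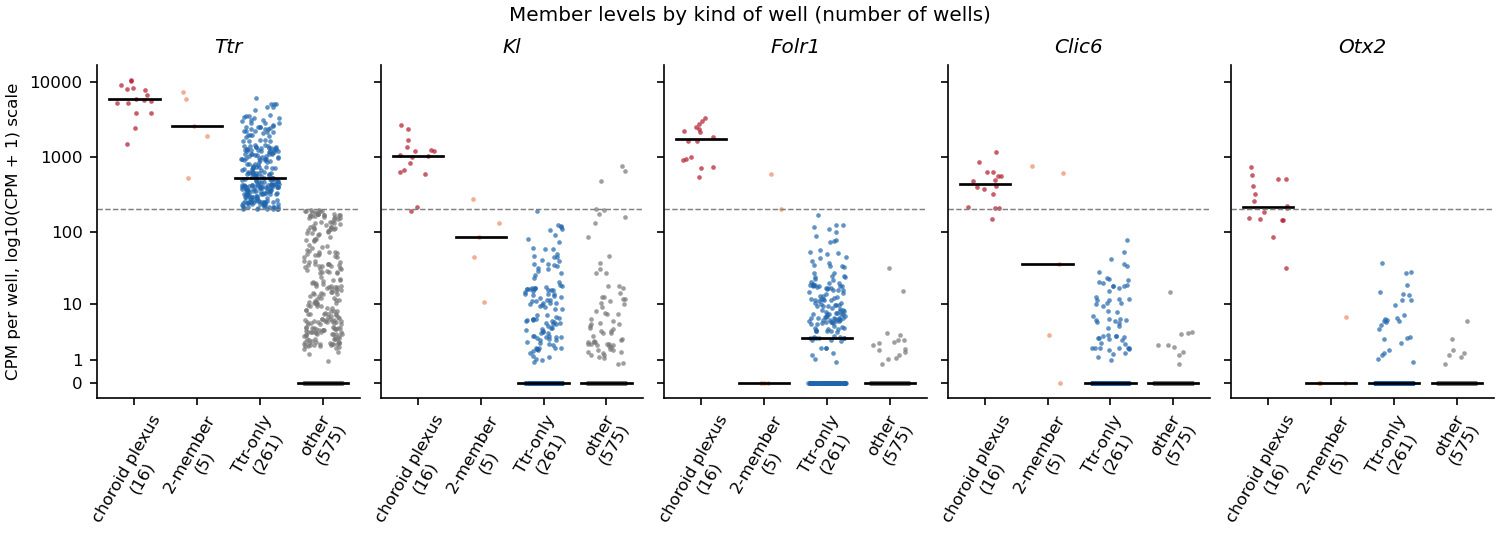
CPM of each member in every kept well, on a log10(CPM + 1) axis, for choroid plexus wells (16), 2-member wells (5), Ttr-only wells (261) and other wells (575). Bars are medians and the dashed line is 200 CPM; outside choroid plexus wells Ttr spans the whole axis while Folr1, Clic6 and Otx2 lie mostly at 0.

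The wells nearest the limit were in 613s. Well P3 passed with Ttr at 10148, Folr1 at 920 and Kl at 216 CPM, beside Clic6 at 151 and Otx2 at 86.6, and well J3 passed with Ttr at 10464, Folr1 at 708 and Clic6 at 208, beside Kl at 188 and Otx2 at 32.5. Of the 5 wells just outside, 613s N17 had Ttr at 5880, Folr1 at 205 and Kl at 131 CPM and passed the oligodendrocyte gate. Well 1025s_182s J14 had Ttr at 1899 and Folr1 at 602 with Clic6 and Otx2 at 0. Wells 600s_182s F16 and 613s G5 had Ttr at 7399 and 2600 with Clic6 at 762 and 609 and Folr1 at 0 in both. The fibroblast-gated well 613s P7 had Ttr at 534 and Kl at 273. For the Ttr-only class the lowest well inside had 200.3 CPM and the highest well outside 199.5.

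The members did not keep 1 proportion from well to well. Across the 16 wells Kl and Clic6 ranked alike (Spearman rho 0.80 of CPM), while Ttr with Kl gave -0.26, Ttr with Folr1 0.19 and Folr1 with Kl 0.10. These are descriptions over 16 wells that differ in depth, with no p. The 2 sets also differed in Folr1. The 7 wells of 1025s_182s had 1621 to 3308 CPM of Folr1 (median 2239), and the 9 of 613s had 546 to 2986 (median 930), so the ranges overlapped. For Ttr the medians were 5685 and 5981 CPM, for Kl 1053 and 670, for Clic6 494 and 376 and for Otx2 226 and 185, each in the order 1025s_182s, 613s. Folr1 thus differed most between the sets in its median, and set and cell cannot be told apart here.

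Ttr reads hardly followed the depth of the well. From the shallowest choroid plexus well (92429 reads) to the deepest (1322117) the total grew 14.3-fold, while the highest Ttr count was 2.13 times the lowest. The same ratio was 89.8 for Kl, 59.8 for Otx2, 59.7 for Clic6 and 14.5 for Folr1. Ttr CPM therefore ranked almost exactly against depth (Spearman rho -0.985), which was not so for Folr1 (-0.153), Kl (0.256), Clic6 (0.350) or Otx2 (0.156). Enpp2, the gene of autotaxin, which had more reads in these wells than any other list gene, gave a ratio of 3.69 and a rho of -0.876. In the plot of member reads against depth, Ttr is a flat band that ends at 1994 reads. How the counting treated duplicate reads is not given in the sources used here, and its part in this was not tested. The Ttr CPM of a choroid plexus well is thus tied to its depth, and ratios to Ttr carry the same limit.

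**Figure D2:**
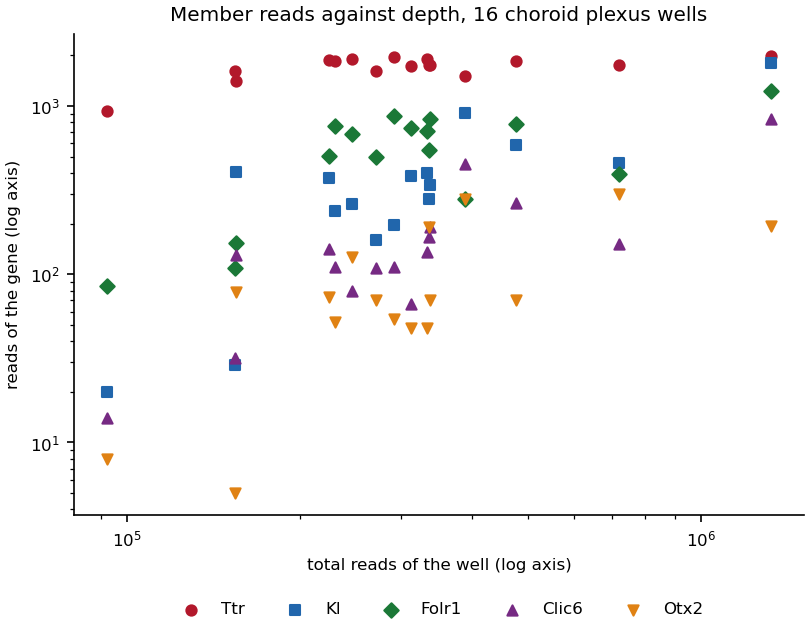
Reads of each member against the total reads of the well in the 16 choroid plexus wells, both axes logarithmic. Ttr stays between 938 and 1994 reads over a 14.3-fold range of depth, while Kl runs from 20 to 1795.

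The 16 wells carried the wider program of the epithelium. Their summed reads were set against those of the other 841 kept wells, with 1 CPM added to each side, and a gene counted as called where the ratio was at least 2-fold and the higher side had at least 10 CPM. Of 12420 genes tested, 17.9% were called higher and 29.8% lower, and the median log2 ratio of all was -0.22. All 5 members were called higher, which the choice of wells fixed: log2 4.69 for Ttr, 7.20 for Kl, 8.70 for Folr1, 7.94 for Clic6 and 7.93 for Otx2. Ttr had the smallest ratio, with 179 CPM in the other wells, against 6.86 for Kl, 2.75 for Folr1, 1.07 for Clic6 and 0.168 for Otx2. Genes that vary with the members are no independent test, since the wells were picked on the members.

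Of 14 genes of ion and water transport 11 were called higher and none lower, with a median log2 ratio of 4.67. Kcnj13, a potassium channel of the apical membrane, stood at 2050 CPM of summed reads against 6.49 in the other wells (log2 8.10). Atp1b1, a sodium pump subunit, stood at 1161 against 70.8 (4.02), and the channel subunit Kcne2 at 941 against 1.94 (8.32). The cotransporter Slc12a2 and the carbonic anhydrase Car2 were among those not called, at log2 0.70 and 0.06. Car2 had 806 CPM in choroid plexus wells and 773 elsewhere. All 18 secreted and surface genes were called higher (median 4.90). Enpp2 had 9358 CPM against 1431 (log2 2.71), the growth factor binding protein Igfbp2 2155 against 89.9 (4.57), 1500015O10Rik 1596 against 10.9 (7.07) and the BMP and Wnt antagonist Sostdc1 1290 against 3.13 (8.29). These shares exceed the 17.9% of all genes, on lists chosen as choroid plexus genes.

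Of 8 choroid plexus and cilia transcription factors 6 were called higher (median of the 7 tested 4.06). Msx1 had 302 CPM against 17.2 and Lmx1a 58.4 against 0.123. Rfx2 had 55.7 against 1.44 and Foxj1, the regulator of motile cilia, 49.7 against 18.2. These are summed values, and the median choroid plexus well held 78.5 reads of Msx1, 7.5 of Foxj1, 4 of Lmx1a and 0 of Rfx2. Rfx3 was not called (35.1 against 30.7), and Mcidas was under 10 CPM on both sides. Of 10 junction and keratin genes 7 were called higher (median of the 8 tested 7.09), among them the protease inhibitor Spint2 at 1291 CPM, keratin Krt18 at 377, claudin Cldn2 at 331 and occludin Ocln at 327. Tjp1 was not called (log2 -0.89), and Cdh1 and Epcam stayed under 10 CPM.

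Genes around what the members do were less uniform. Of 13 genes that handle the cargo of transthyretin 10 were tested and 6 were called higher (median 2.34). The thyroid hormone transporter Slco1c1 stood at 1004 CPM against 112, and the retinol-binding protein receptor Stra6 at 408 against 24.8. The deiodinase Dio2 (1.53 against 11.7 CPM) and the thyroid hormone receptor Thra (76.4 against 209) were called lower. Rbp4 and Crym were not called (log2 -0.56 and -0.39), and the retinoid enzyme Lrat and the endocytic receptor Lrp2 had no reads in choroid plexus wells. Of 9 folate genes 8 were tested, 5 called higher and 1 lower (median 1.46). The proton-coupled folate transporter Slc46a1, the reduced folate carrier Slc19a1 and the hydrolase Ggh stood at 263, 237 and 351 CPM against 26.7, 43.4 and 78.6, while Fpgs, which traps folate in cells, was lower at 8.66 against 36.9. Mthfd1 was among those not called (log2 0.62).

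In its ratio to the other wells Kl stood apart from its signalling partners. Of 10 genes of the Klotho family, the FGF receptors and the sheddases that release Klotho, 5 were tested and none was called higher (median 0.10). The receptor Fgfr2 was called lower (90.6 against 249.5 CPM). Fgfr1 (log2 0.66), the sheddases Adam10 (0.51) and Adam17 (-0.72) and Fgfr3 (0.10) were not called. These ratios do not mean absence. Choroid plexus wells held 1058 reads of Fgfr1 (median 22.5 per well) and 466 of Fgfr3 (median 2). Klb and Trpv5 had no read in either group, and Fgf23 and Fgfr4 had none in choroid plexus wells.

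**Figure D3:**
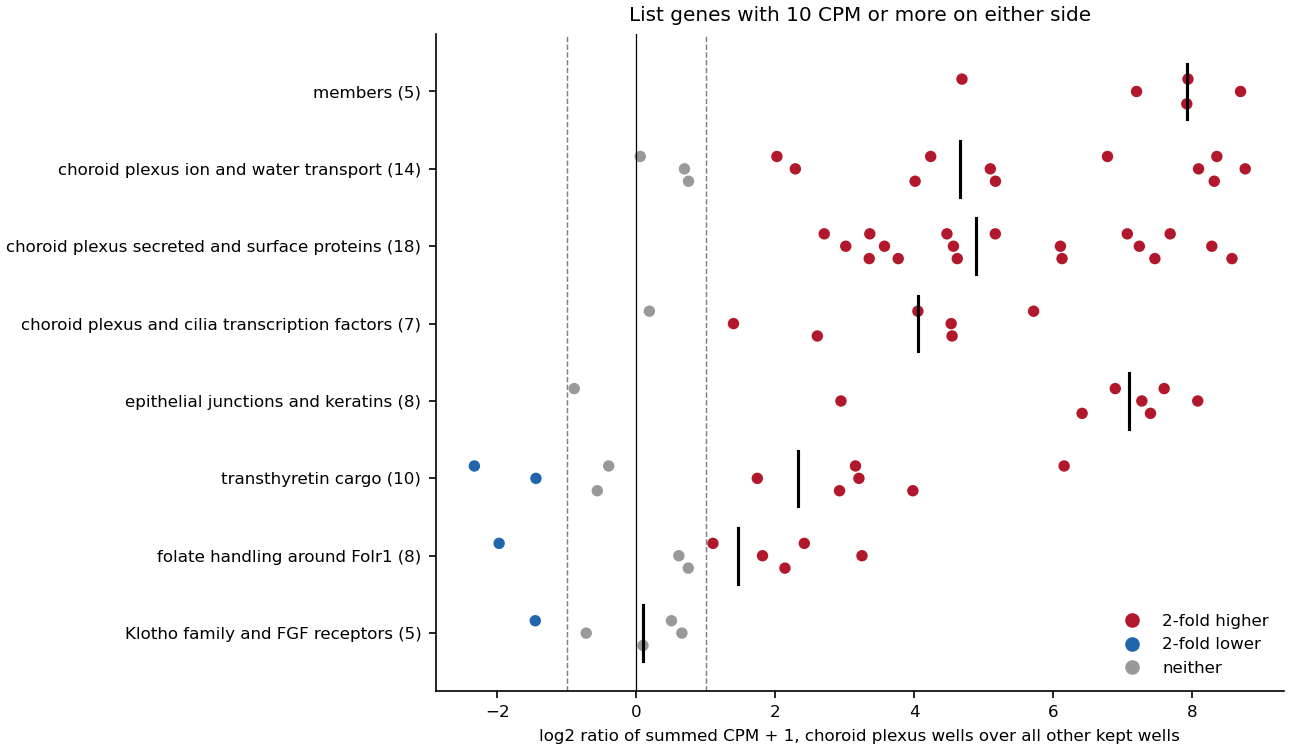
Log2 ratio of summed CPM + 1 in 16 choroid plexus wells over 841 other kept wells for the members and the list genes with 10 CPM or more on either side. Points are genes, black bars are list medians and dashed lines mark 2-fold; the lists of epithelial function lie to the right, and the Klotho and FGF receptor list is centred at 0.10.

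Outside the members, the highest ratios among genes with at least 100 CPM were those of Car12 (log2 8.77), Prlr (8.58), Slc4a5 (8.36), Kcne2 (8.32), Sostdc1 (8.29), Kcnj13 (8.10), Krt18 (8.08), Prr32 (7.98), Wfdc2 (7.97) and F5 (7.69). Each was above 10 CPM in all 16 wells. Car12 is a membrane carbonic anhydrase, Prlr the prolactin receptor, Slc4a5 a bicarbonate cotransporter and F5 coagulation factor V. The lowest were Sez6l (log2 -6.81), Susd4 and Tmem132b (both -6.61) and Bcan (-6.58), with Elfn2, which had 0 reads against 105 CPM. Bcan encodes brevican, a proteoglycan abundant in oligodendrocyte precursors.

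Most choroid plexus wells also held transcripts of other cell types. In 14 of the 16 at least 3 markers of another class reached 200 CPM, and the 2 without were 1025s_182s K3 and 613s I17. Passing for some class was common, since 55 of all 857 kept wells were ungated. Endothelial markers passed in 7 wells (43.8%), fibroblast in 6 (37.5%), microglia in 4 (25%), erythrocyte in 3 (18.8%), mural in 2 (12.5%) and oligodendrocyte in 1 (6.25%). In the 575 wells with Ttr under 200 CPM the shares were 6.61%, 8.70%, 3.48%, 0.696%, 1.74% and 44.3%, in the same order. No choroid plexus well passed for OPC, COP, astrocyte, neuron, ependymal or perivascular macrophage markers. The summed CPM of the 6 endothelial markers ran from 136 to 9763 (median 892) in choroid plexus wells, against 0 to 15118 (median 23.6) in the 575 wells with Ttr under 200 CPM. For the 6 fibroblast markers it ran from 39.1 to 4850 (median 838) against 0 to 28116 (median 48.9). The 6 ependymal markers ran from 97.3 to 574 CPM (median 284) against 0 to 2205 (median 5.09). In choroid plexus wells 2 of these markers were at 0, and the list includes Foxj1. No Ttr-only well and none of the 575 wells passed for ependymal markers either. Whether these wells held more than 1 cell was not tested.

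Across all 857 wells the genes whose log2(CPM + 1) followed Folr1 most closely among 17333 genes were Kcne2 (Pearson r 0.83), Sostdc1, Kcnj13, Slc4a5 and Prlr. For Clic6 they were Slc4a5 (0.77), Car12, Wfdc2, Drc7 and Otx2, and for Otx2 Cldn2 (0.82), Drc7, Prr32, Gm21973 and Rsph1. Kl led with Sostdc1 (0.68), followed by Kcne2, Clic6, Slc4a5 and Car12. Ttr had the lowest leading value, 0.63 with 1500015O10Rik, followed by Kcnj13, Folr1, Sostdc1 and Spint2. The values describe wells that share plates and differ in depth.

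Ttr outside the choroid plexus wells followed the plate. In the sets 1025s_182s and 613s the 16 choroid plexus wells occupy 12 rows and 13 columns. Another 401 wells share a row or a column with one of them and 351 share neither. All 401 sharing wells held Ttr, with 23 to 740 reads and a median of 114. The 351 wells off these lines had 0 to 852 reads with a median of 2. The pattern was there in each set: in 1025s_182s the 179 sharing wells had 23 to 405 reads (median 99) and the 198 others a median of 1, and in 613s the 222 sharing wells had 31 to 740 (median 157) and the 153 others a median of 3. In the maps of Ttr by plate position the choroid plexus wells sit at the crossings of bright rows and columns. The labels do not say how wells were handled or indexed after the sort, and the cause of the pattern was not tested.

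**Figure D4:**
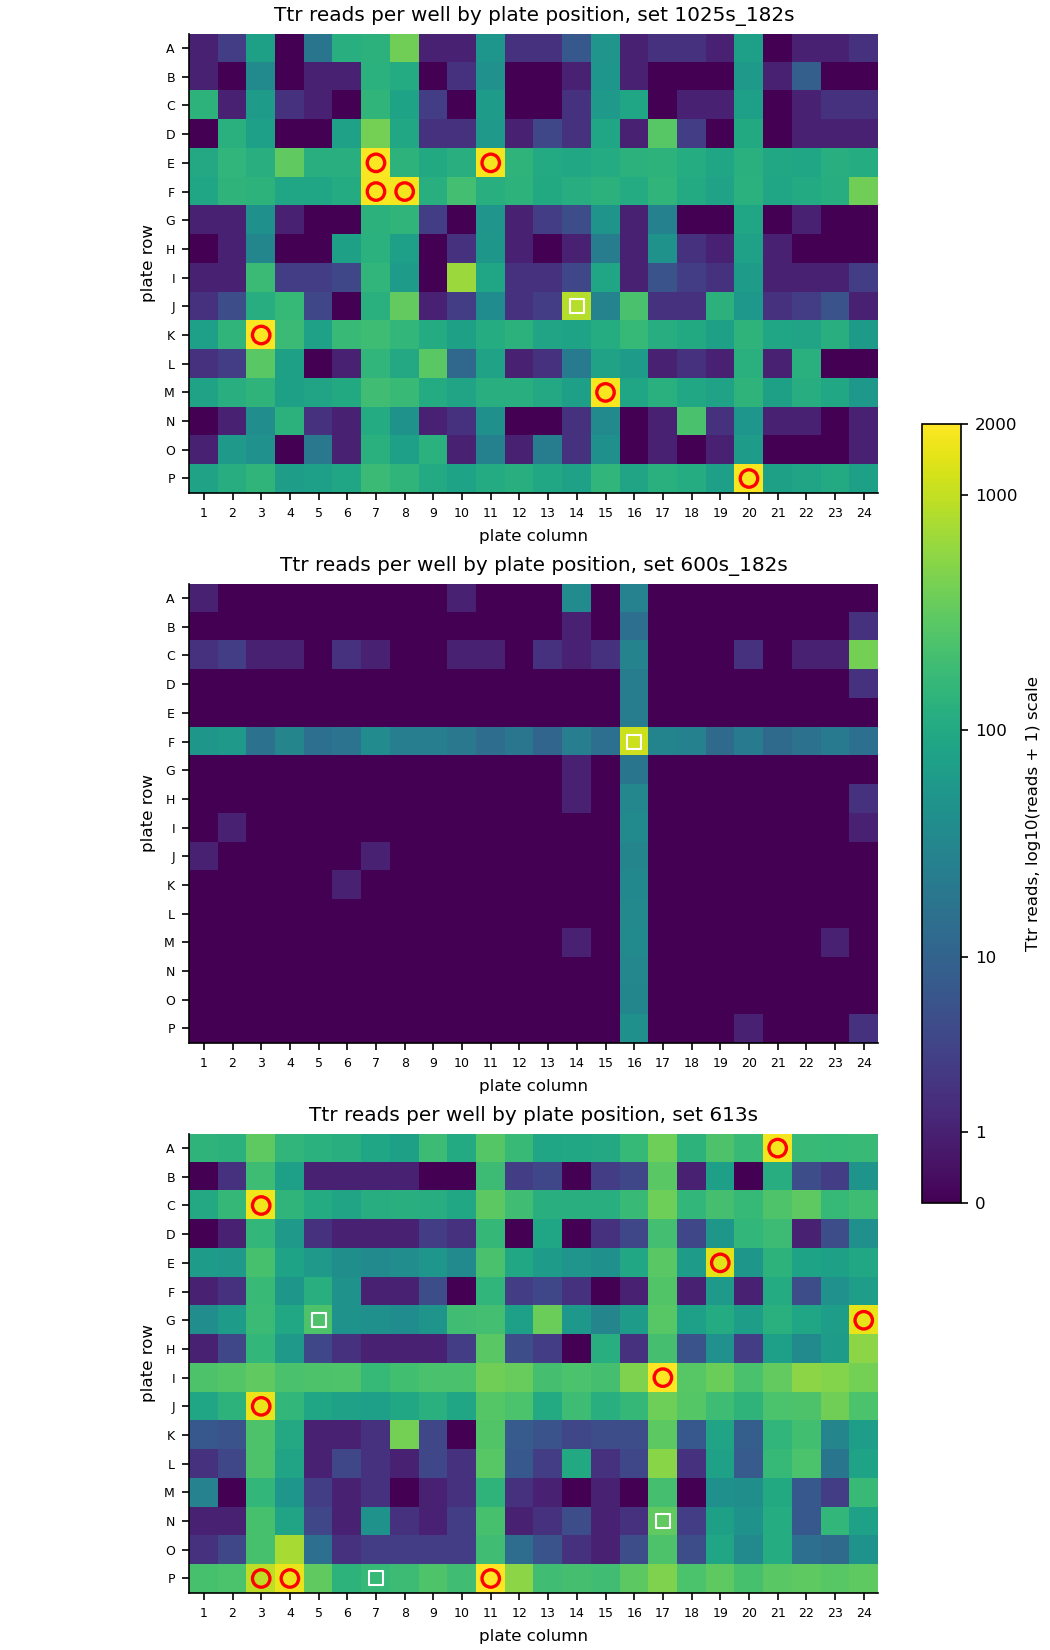
Ttr reads of all 1152 wells by plate row (A to P) and column (1 to 24) in the 3 sets, coloured on a log10(reads + 1) scale. Red circles are the 16 choroid plexus wells and white squares the 5 wells with Ttr and 1 other member; the rows and columns through the circles are bright along their whole length, as are row F and column 16 through the square at F16 of 600s_182s.

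Along the lines Ttr differed little with distance. Wells that share a line and adjoin a choroid plexus well had a median of 140 Ttr reads (62 wells), and wells that share a line farther away 110 (339 wells). Wells that touch a choroid plexus well at a corner, without sharing a line, had a median of 3.5 reads (32 wells). Sharing only a row gave a median of 109 reads (209 wells), only a column 86 (129 wells), and both a row and a column 179 (63 wells). The ranges of these 3 groups overlapped, from 31 to 532, 23 to 740 and 81 to 455 reads.

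Ttr reads also differed little with the depth of the sharing well. Sharing wells of at least 50000 reads had a median depth of 262344 and a median of 128 Ttr reads, and sharing wells under 50000 reads a median depth of 26653 and a median of 102. In CPM the same counts gave medians of 451 and 4941. All 141 sharing wells under 50000 reads were above 200 CPM, against 225 of the 260 deeper ones. Off the lines the medians were 2 and 1 reads.

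**Figure D5:**
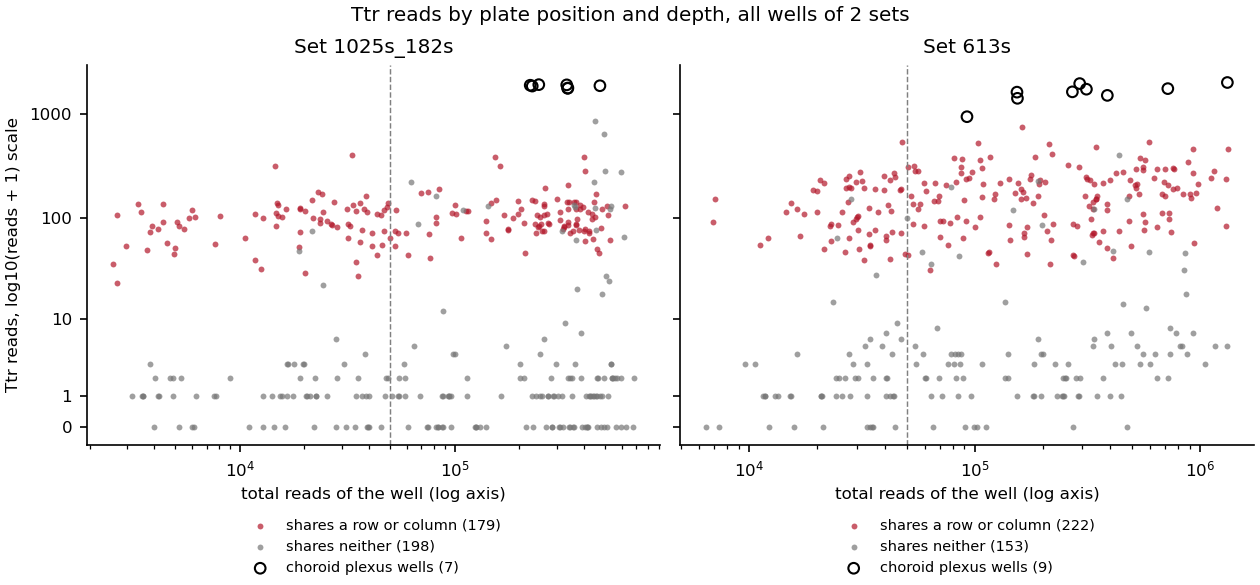
Ttr reads of every well of 1025s_182s and 613s on a log10(reads + 1) axis against the total reads of the well on a log axis; red points share a row or column with a choroid plexus well (179 and 222), grey points share neither (198 and 153), open circles are the choroid plexus wells. The red band lies at 23 reads or more at every depth, and most grey points lie under 10 reads.

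Of the 248 Ttr-only wells of these 2 sets, 222 (89.5%) shared a line with a choroid plexus well, against 35 of 240 wells with Ttr under 200 CPM (14.6%) and 260 of all 492 kept wells other than choroid plexus wells (52.8%). The shares for Ttr-only wells were 85.6% in 1025s_182s and 92.4% in 613s. Without the sharing wells the 261 Ttr-only wells of the 3 sets become 39. The set without a choroid plexus well showed the same cross around its strongest Ttr well, F16, with 1136 Ttr reads. Its 23 row partners had 11 to 58 Ttr reads (median 20) and its 15 column partners 15 to 45 (median 32). Of the other 345 wells of that set 312 had no Ttr read. There 12 of the 13 Ttr-only wells lay on the lines of F16, and the exception was C24, with 403 reads.

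For 13 of the 16 choroid plexus wells some partners lie on the line of that well alone. The median of these partners was 3.00% to 11.9% of the Ttr reads of the choroid plexus well, with 4.46% in the middle. Well I17 of 613s, the deepest of the 16, had the highest value, with a median of 238 reads in 26 partners against 1994 of its own. Well E11 of 1025s_182s had the lowest, with 53 reads in 11 partners against 1765. For F16 of 600s_182s the value was 2.20%. Lines did not form around every well with Ttr. Off the lines 10 wells of the 3 sets had at least 200 Ttr reads, and the 9 other than F16 had partner medians of 1 to 4 reads.

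Each of the other members followed the lines in more wells but with few reads. Folr1 had at least 1 read in 53.4% of the sharing wells against 2.56% of the wells off the lines. Kl had a read in 44.1% against 16.0%, Clic6 in 20.4% against 0.855% and Otx2 in 11.2% against 1.14%. Their medians in sharing wells were 1 read for Folr1 and 0 for the other 3. Median depth was close in both groups, 108244 reads in sharing wells and 99045 off the lines. Summed over the 401 sharing wells, Ttr came to 57839 reads, 211 for every 100 in the 16 choroid plexus wells. For the other members the figure was 17.1 (Kl), 6.48 (Folr1), 6.42 (Clic6) and 3.30 (Otx2) per 100. Of the 1167 Kl reads 586 were in 1 fibroblast well, J16 of 613s, and without it Kl came to 8.51 per 100, a value computed after seeing the data. The 351 wells off the lines held 6765 Ttr, 536 Kl, 298 Folr1, 3 Clic6 and 14 Otx2 reads, and 270 of the 298 Folr1 reads were in J14 of 1025s_182s. Genes outside the members that led the choroid plexus wells gave 8.77 (Kcnj13), 7.70 (Prlr), 6.88 (Sostdc1), 5.43 (Kcne2) and 4.55 (Car12) per 100. In summed reads Kcnj13 and Kcne2 had about as many off the lines as on them (1130 against 1059, and 297 against 301). In wells they differed: Kcnj13 had a read in 63.1% of the sharing wells against 12.5% off the lines, and Kcne2 in 29.2% against 2.56%. List genes with more reads elsewhere gave values as high as Ttr or higher, as Enpp2 with 269 and Tmem72 with 214 per 100. By summed reads neither was called between kept wells on and off the lines (log2 0.12 and 0.16). Over wells of any depth the median was 69 Enpp2 reads on the lines and 24 off them. For Tmem72 it was 2 and 1. In well I17 of 613s the median partner held 11.9% of the Ttr reads of I17 itself but 0.366% of Folr1, 0.167% of Kl and 0.120% of Clic6. The flat Ttr counts of the choroid plexus wells stand beside the higher Ttr values, and their part in them was not tested.

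The proportion of the members differed between the 2 kinds of well. Per 100 Ttr reads, choroid plexus wells held 24.9 reads of Kl (95% interval 24.3 to 25.6), 33.6 of Folr1 (32.8 to 34.4), 10.9 of Clic6 (10.5 to 11.4) and 6.10 of Otx2 (5.80 to 6.41). Ttr-only wells held 1.11 of Kl (1.01 to 1.21), 1.10 of Folr1 (1.00 to 1.20), 0.259 of Clic6 (0.213 to 0.311) and 0.0908 of Otx2 (0.0646 to 0.124). That the second set is lower was fixed in part by the rule, which holds these 4 genes under 200 CPM in Ttr-only wells. Within choroid plexus wells the ratios also varied, from 1.80 to 90.0 for Kl and from 6.76 to 61.7 for Folr1.

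Ttr showed the same split in the 8 classes with at least 3 wells on and off the lines. Among kept wells of the 2 sets, oligodendrocyte wells had a median of 372 Ttr CPM on the lines (113 wells) and 4.27 off them (91 wells). Oligodendrocyte precursor (OPC) wells had 453 (24) and 8.28 (23), and committed precursor (COP) wells 250 (6) and 6.63 (8). Fibroblast wells had 534 (35) and 28.8 (21), mixed wells 410 (49) and 19.1 (40), and ungated wells 1198 (20) and 17.3 (32). Endothelial wells had 427 (3) and 11.4 (11), and astrocyte wells 960 (5) and 10.4 (3). In 6 of these 8 classes every well on a line held more than 100 Ttr CPM; the exceptions were oligodendrocyte wells, from 60.8, and mixed wells, from 98.0. The ranges on and off the lines overlapped in 6 classes, where the highest well off the lines had 503 to 3565 CPM, and not in COP and astrocyte wells. In 600s_182s the median was 0 in OPC, COP, oligodendrocyte, fibroblast and mixed wells.

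Ttr-only wells were 13.1% of OPC wells, 8.54% of COP wells, 36.3% of oligodendrocyte wells, 50.7% of fibroblast wells and 42.9% of mixed wells. These shares move with the sets, since 175 of the 222 OPC wells and 68 of the 82 COP wells are in 600s_182s. Against the 575 wells with Ttr under 200 CPM, Ttr-only wells had 9.00% of 11984 tested genes called higher and 6.59% lower. Of the members only Ttr had 10 CPM on either side, so 1 of 5 was tested, and it was called higher by the rule. None of the 9 tested ion and water transport genes was called. Of 11 tested secreted and surface genes 5 were called higher, 1500015O10Rik (log2 2.47), Col8a1 (2.39), Wdr86 (2.12), Slc2a12 (1.47) and Sulf1 (1.36), and Slc29a4 lower (-1.86). These 6 are named after their values were seen. The 2 groups also differ in set, since 600s_182s gave 335 of the 575 wells and 13 of the 261 Ttr-only wells. Of the 261 Ttr-only wells 158 (60.5%) had at least 3 OPC, COP or oligodendrocyte markers at 200 CPM, wells classed as mixed included, against 472 of the 575 wells with Ttr under 200 CPM (82.1%). Within the sets that hold choroid plexus wells, the 260 kept wells on a line against the 232 off it gave 5.30% of 11790 genes called higher and 4.01% lower. Of the members Ttr was called higher, Kl was tested and not called, and Folr1, Clic6 and Otx2 were under 10 CPM. Of 10 tested secreted and surface genes 1 was called higher on the lines and 2 lower, Igf2 and Slc13a4. The other 7 were not called, among them 1500015O10Rik, Col8a1, Wdr86 and Sulf1.

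To compare how often each member was seen, every kept well was thinned to 50000 reads. Of the 841 wells other than choroid plexus wells 49.8% then held a Ttr read (46.4 to 53.3), 10.6% a Kl read, 9.16% a Folr1 read, 3.21% a Clic6 read and 0.951% an Otx2 read. Before thinning the shares were 61.1%, 22.7%, 19.0%, 8.92% and 4.28%. In oligodendrocyte wells, a class not known for Ttr, the thinned share for Ttr was 58.4%. All 16 choroid plexus wells kept at least 1 read of each member after thinning.

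Kl was the one member with strong wells of its own. It reached 200 CPM with Ttr under 200 CPM in 4 wells. Well E16 of 600s_182s had 752 CPM on 213 reads and well J16 of 613s 643 CPM on 586 reads, both gated as fibroblast, and both had Folr1 and Otx2 at 0. Wells N12 and O22 of 600s_182s, both mixed, had 478 CPM on 40 reads and 202 CPM on 13. Both passed for fibroblast markers as well as for COP and oligodendrocyte markers. Fibroblast wells together held 52.1 CPM of Kl (49.2 to 55.2), against 1.33 in oligodendrocyte wells and 1.10 in OPC wells, and the 2 strong wells with 613s P7 gave 883 of their 1172 Kl reads. The median fibroblast well had 0.

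The 295 wells under 50000 reads held 2561 to 49623 reads (median 25513). Ttr had 17037 reads in them and at least 1 read in 238 wells (80.7%), with 2293 CPM of summed reads (2259 to 2328). In 168 of the 295 wells (56.9%) Ttr was at 200 CPM or more. The set 600s_182s differed here too, with 72 Ttr reads in 4 of 35 wells. The other members had few reads in these wells: 124 of Folr1, 116 of Kl, 24 of Otx2 and 22 of Clic6. By the 3-member rule 3 shallow wells would pass, E17, M5 and O15 of 1025s_182s, with 4374, 3915 and 4956 reads. Each rests on 45 to 135 Ttr reads and on 1 read of each other member detected, and each lies on a line of a choroid plexus well. In wells this shallow 1 read is worth more than 200 CPM, so the rule does not carry over to them.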

How the data were processed

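The deposited values are raw counts of reads per gene and well, as the authors made them, with no normalization. Tools listed in the submitters' processing notes are featureCounts from the Subread package (1.4.6-p5), TopHat2 (2.1.1) and SAMtools (0.1.18), and the builds listed are mm10 and GRCm38. Not given in the sources used here are the annotation, the strand setting and the handling of multimapping and duplicate reads, so reads of overlapping genes may be shared. Since no well could be matched to its line or animal, all wells were 1 sample, cells were not replicates, and no test or p-value was made.

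Counts were scaled to CPM in 857 wells with at least 50000 reads (Python 3.11.15, pandas 2.3.3, numpy 2.4.6, scipy 1.17.1). Groups were compared by the log2 ratio of CPM of summed counts plus 1 CPM, called at 2-fold and 10 CPM. On simulated counts for the comparison of choroid plexus wells with the other wells, this recovered 100 of 100 raised and 100 of 100 lowered genes. That covers changes of the simulated size only. The size and a rate of false calls are not given here, so it does not bear on single calls. Intervals are exact Poisson for CPM and exact Clopper-Pearson for shares, at 95%. Thinning to 50000 reads drew reads without replacement. Promoter windows are from RefSeq (GRCm38.p6), coordinates and exon lengths from GENCODE vM21.

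The members, lists and rules were chosen with earlier results of these data known. The text names all members. From each list it names 2 to 4 genes in order of CPM in choroid plexus wells and every gene that goes against its list; some genes this rule names are not reported here. It also names the 10 highest and 5 lowest ratios among genes at 100 CPM or more, and the 5 genes most like each member. The comparison of wells on and off the plate lines over all genes, the values by class, depth and single source along the lines, the wells with strong Kl, and the search around F16 were added after seeing the data.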

Additional observations from a re-analysis of the deposited data

How the results depend on the processing

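Of 91 alternative values for 28 results, 61 stayed within the limits set for them and 30 did not. The limits were 1.5-fold for counts, and the counting interval or the spread over wells for levels. Whether the ratio of any gene changed direction was not compared. Without the set 1025s_182s there were 9 choroid plexus wells and 157 Ttr-only wells, and without 613s 7 and 117. Ttr-only wells numbered 139 with members counted at 500 CPM, and 39 without wells that share a plate line with a choroid plexus well, an alternative chosen after seeing the data. Medians over the 16 choroid plexus wells were 5833 CPM for Ttr, 1042 for Kl, 1738 for Folr1, 443 for Clic6 and 217 for Otx2, against 4646, 1159, 1559, 508 and 283 from summed reads. Over reads outside mitochondrial genes and Ttr, the summed values were 4792 for Ttr, 1195 for Kl and 1608 for Folr1. Without the deepest choroid plexus well, Kl came to 19.8, Folr1 to 31.4 and Clic6 to 8.49 reads per 100 Ttr reads. Without the sharing well with the most Kl reads, Kl along the lines came to 8.51 per 100 against 17.1, also chosen after seeing the data. With 3 reads as detection, 39.2% of the other thinned wells held Ttr, 3.21% Kl, 2.02% Folr1, 0.832% Clic6 and 0% Otx2. With no filter on low CPM, 5679 genes were lower in choroid plexus wells against 3695, and in Ttr-only wells 1937 were higher against 1079 and 1531 lower against 790. With a pseudocount of 10 CPM the last 2 counts were 506 and 317. Lower genes in Ttr-only wells numbered 513 without 600s_182s and 1855 without 613s, so these counts depend on the sets. Without 613s 1453 genes were higher, and with the mean of CPM over wells 987 were higher and 1053 lower. In both cases lower genes outnumbered higher ones, unlike in the main setting, and the cause was not tested. No paired analysis was possible because no sample carries a group or a replicate number. Depth limits single wells: at 50000 reads 1 read is 20.0 CPM, so a member at 200 CPM there rests on 10 reads.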

Other observations

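Most tested genes that handle the cargo of transthyretin were called higher in Ttr-only wells too, in a comparison whose groups also differed in set. Of 9 tested against the 575 wells with Ttr under 200 CPM, 6 were higher by at least 2-fold (list median log2 1.28), where 9.00% of all tested genes were called higher. They include the retinol-binding protein Rbp4 (25.3 against 7.07 CPM), the deiodinase Dio2 (25.0 against 7.15), the receptor Stra6 (51.5 against 15.8), the transporter Slco1c1 (198 against 81.1) and the thyroid hormone receptor Thrb (12.6 against 5.09). A median well with less Ttr had 0 CPM of each of these 5. The set 600s_182s held 335 of the 575 wells but 13 of the 261 Ttr-only wells, and the part of the sets was not tested. In choroid plexus wells Dio2 was called lower and Rbp4 was not called. Single wells weigh on such sums, and 1 Ttr-only well had 6433 CPM of Thrb. At least 3 fibroblast markers reached 200 CPM in 20.3% of Ttr-only wells and in 8.70% of the 575 wells. The shares were also higher for endothelial markers (13.0% against 6.61%), microglia (8.81% against 3.48%), mural (4.98% against 1.74%) and astrocyte (6.13% against 4.00%). Smaller rises were those of oligodendrocyte (47.5% against 44.3%), neuron (1.15% against 0.522%) and erythrocyte markers (0.766% against 0.696%). Lower shares were those of OPC (15.7% against 40.0%), COP (7.66% against 27.0%) and perivascular macrophage markers (0% against 0.174%). The part of this makeup in these genes was not tested. Between kept wells on and off the plate lines 2 of 9 tested were called higher, Dio2 (log2 2.78) and Thrb (1.20), and the other 7 were not called, where 5.30% of all tested genes were called higher. These genes were named after their values were seen.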
